A study of Mus musculus with 3 samples.

Results

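The accessible chromatin of dopaminergic neurons (DNs) was examined at 4 genes of the neurexin and neuroligin families, Nrxn2, Nrxn3, Nlgn1 and Nlgn2. These genes were chosen by name from the 21755 protein-coding genes on the 19 autosomes and the X chromosome in the GENCODE M21 annotation of mm10. The gene bodies of the 4 genes overlapped 103 of the 55326 accessible peaks of DNs. Other genes of these families were not analysed here. The peaks come from single-nucleus ATAC-seq, in which a transposase inserts adapters into open chromatin within isolated nuclei and the DNA of each nucleus then receives a barcode of its own. The tissue was the midbrain ventral tegmental area (VTA) of wild-type male C57Bl/6Nl mice, with 1 library at 7 weeks of age (replicate 1) and 1 at 9 weeks (replicate 2). The DN nuclei are a cluster of the VTA nuclei that the authors chose by marker genes, and both libraries were pooled into 1 list of positions. The series also labels a bulk ATAC-seq sample of mouse embryonic stem cells, which was not analysed here.

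Each peak in the list is 500 bp wide, and no height, score or read count accompanies it. No value below therefore has a spread between replicates, no test between groups was possible, and the depth behind a single peak is unknown. A stretch without a peak is one in which none was called. Fewer nuclei with an open stretch and a weaker opening in each nucleus cannot be told apart in such a list. Of 12 marker genes of dopaminergic neurons, 12 had a peak over the gene body and at a transcript start, with 43.9 to 1222 peaks per Mb, whereas 63.8% of all protein-coding genes had a peak over the gene body. Markers of other cells were not free of peaks: a peak lay over 2 of 6 markers of oligodendroglia, 2 of 4 of astrocytes, 1 of 4 of microglia, 2 of 3 of GABAergic neurons and 2 of 4 of pyramidal neurons. The authors chose the DN cluster by the accessibility of Th and examined it at Lmx1b, Foxa1, Foxa2 and Slc6a3, all of which are among the 12, so peaks at these genes follow in part from the choice of nuclei. The oligodendroglial regulators Olig2 and Sox10 had none. The part of other cells in the counts below was not tested.

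Neurexins are adhesion proteins of the presynaptic membrane, and neuroligins are their partners on the postsynaptic side. Binding between the pair across the cleft helps to specify and organize synapses, and each family recruits scaffold proteins inside its own cell. Each neurexin gene has an outer promoter for a long alpha protein, with a large extracellular part, and an inner promoter for a short beta protein that shares the membrane-spanning end. The choice of start therefore decides which extracellular domains the protein carries, and extensive alternative splicing adds to it. Nlgn1 is best known from excitatory synapses and Nlgn2 from inhibitory synapses.

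The sequences next to the alternative starts are shown first, because the results turn on which of these starts lay under a peak. Each line gives the nearest 200 bases upstream of an annotated start that hold no annotated exon, read 5′ to 3′ in the direction of transcription from GRCm38.p6, the assembly that mm10 is. Capitals mark the word GGGCGG or its complement, which Sp and KLF factors bind, and none of the other 11 words searched occurred in these lines.
Nrxn2 outer start (chr19:6418531-6418730, plus strand): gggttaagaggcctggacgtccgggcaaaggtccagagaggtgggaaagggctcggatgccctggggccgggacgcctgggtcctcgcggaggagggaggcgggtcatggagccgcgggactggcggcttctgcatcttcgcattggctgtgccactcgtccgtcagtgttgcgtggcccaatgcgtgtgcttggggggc
Nrxn2 inner start (chr19:6497471-6497670, plus strand): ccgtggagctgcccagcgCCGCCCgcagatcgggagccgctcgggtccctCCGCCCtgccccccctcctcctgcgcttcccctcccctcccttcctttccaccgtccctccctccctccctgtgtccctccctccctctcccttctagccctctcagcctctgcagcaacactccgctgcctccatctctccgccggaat
Nrxn3 outer start (chr12:88722501-88722700, plus strand): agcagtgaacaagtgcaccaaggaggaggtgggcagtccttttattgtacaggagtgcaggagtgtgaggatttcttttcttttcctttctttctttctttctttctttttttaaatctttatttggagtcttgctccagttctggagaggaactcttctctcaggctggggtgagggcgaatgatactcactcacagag
Nrxn3 inner start (chr12:89812283-89812482, plus strand): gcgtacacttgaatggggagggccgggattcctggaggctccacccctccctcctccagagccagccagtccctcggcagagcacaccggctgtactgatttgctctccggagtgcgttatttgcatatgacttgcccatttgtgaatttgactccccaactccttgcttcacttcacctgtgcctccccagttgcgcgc
Nrxn3 coding start without a peak (chr12:88794304-88794503, plus strand): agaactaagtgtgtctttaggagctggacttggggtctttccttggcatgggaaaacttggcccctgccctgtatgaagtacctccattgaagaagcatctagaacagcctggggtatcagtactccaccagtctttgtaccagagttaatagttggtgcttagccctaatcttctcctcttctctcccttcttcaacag
Nlgn1 outer start (chr3:26332867-26333066, minus strand): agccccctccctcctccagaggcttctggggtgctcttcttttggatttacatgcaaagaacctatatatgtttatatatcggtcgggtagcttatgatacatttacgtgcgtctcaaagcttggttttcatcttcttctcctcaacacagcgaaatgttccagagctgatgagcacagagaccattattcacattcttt
Nlgn1 coding start without a peak (chr3:26134053-26134252, minus strand): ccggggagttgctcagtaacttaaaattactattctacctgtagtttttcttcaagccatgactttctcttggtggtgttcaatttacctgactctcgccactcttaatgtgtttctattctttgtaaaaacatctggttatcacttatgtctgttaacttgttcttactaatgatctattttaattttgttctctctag
Nlgn2 outer start (chr11:69837785-69837984, minus strand): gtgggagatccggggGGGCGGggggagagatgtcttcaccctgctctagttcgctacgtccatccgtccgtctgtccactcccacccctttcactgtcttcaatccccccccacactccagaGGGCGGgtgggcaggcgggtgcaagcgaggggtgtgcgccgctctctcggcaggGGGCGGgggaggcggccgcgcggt

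A peak covered all 200 bases at 5 of the 6 starts shown with a peak, and 54 of them at the outer start of Nrxn3, where the stretch lies 175 bases before the GENCODE start because RefSeq models begin earlier. No peak touched the stretches at the 2 starts shown without a peak. GC content was 68.0% and 70.5% before the outer and inner start of Nrxn2 and 70.0% before the start of Nlgn2. It was 44.0% and 58.5% before the outer and inner start of Nrxn3, 43.5% in a stretch that lies 406 bases before the outer start of Nlgn1, and 47.5% and 34.5% at the 2 starts without a peak. Over all protein-coding genes, the 200 bases before the outermost coding start had a median GC content of 61.5% where a peak centre lay within 1 kb and 48.5% where none did. The stretches before the outer start of Nrxn3, the inner start of Nrxn2 and the start of Nlgn1 without a peak lie 175, 157 and 318 bases before them. Their values, and that of the outer start of Nlgn1, are therefore not matched to these medians. A peak inside Nlgn1, 746 bp past the outer start, had a GC content of 68.2%. The GC content was not high at every start of Nrxn2 with a peak: the exon-free stretch before the coding starts at 9.19 kb, not printed, had 48.0%, with 113 of its bases under a peak. The word GGGCGG was found before the inner start of Nrxn2 and the start of Nlgn2, and in 57.6% of the windows of all genes with a peak and 18.4% of those without. The stretch before the inner start of Nrxn3 was free of exons in GENCODE and in the curated RefSeq models, but predicted RefSeq models run across it.

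**Figure D1:**
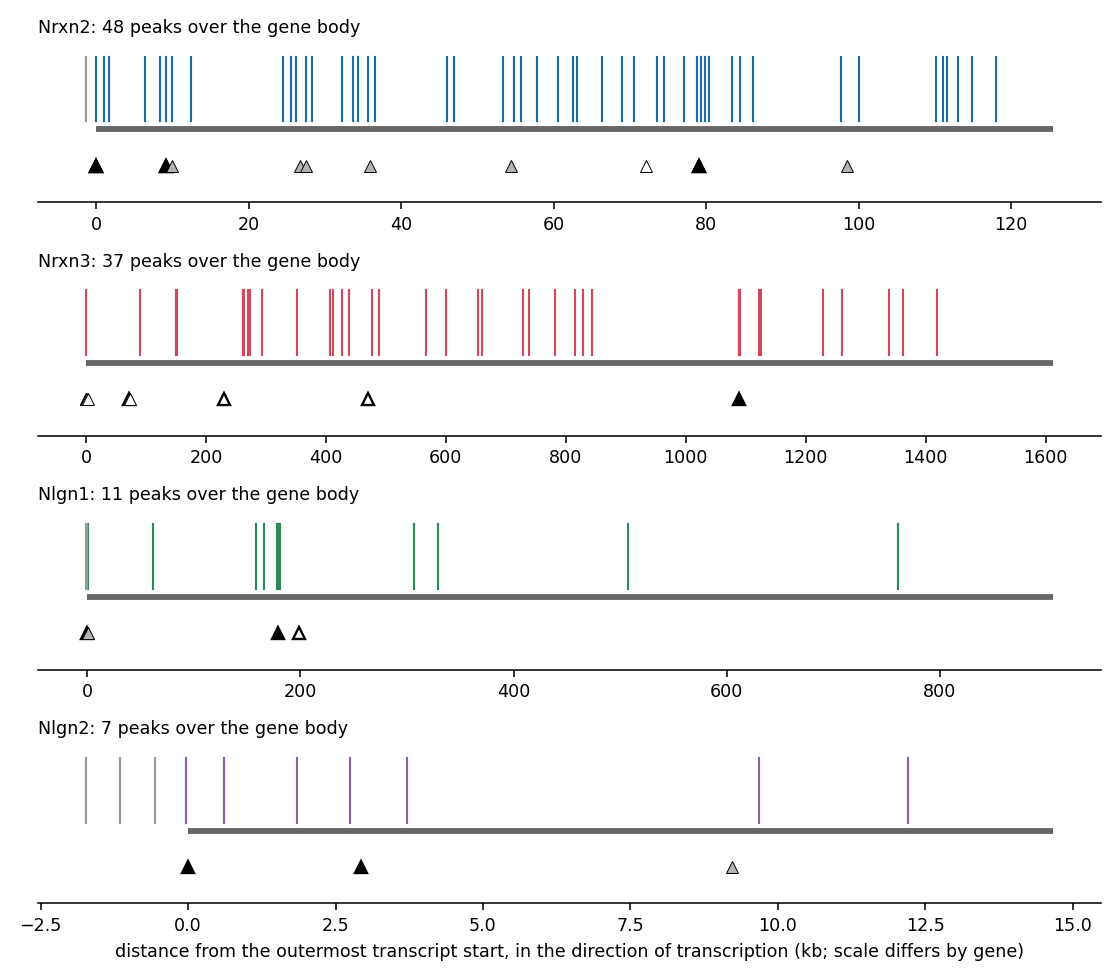
DN peaks along the 4 genes, as vertical lines at the distance of the peak centre from the outermost transcript start in kb, with a scale for each gene; coloured lines are peaks over the gene body and grey lines are peaks within 2 kb outside it. Triangles are distinct transcript starts (black, coding transcript with a peak centre within 1 kb; thick open, coding without one; small grey and small open, other transcripts with and without one), and the 48 peaks of Nrxn2 run along the gene with no gap over 12.1 kb whereas the 37 of Nrxn3 leave a gap of 246 kb before its inner start.

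Nrxn2 had the most peaks of the 4 genes. The gene (ENSMUSG00000033768.17) lies on the plus strand of chromosome 19 at chr19:6418731-6544169 and is 125 kb long, and it held 48 peaks, or 383 peaks per Mb. Genes of 50 to 300 kb had a median of 24.0 peaks per Mb (upper quartile 46.4), and Nrxn2 ranked 7 among these 4433 genes. Peaks covered 18.9% of its bases. Of the 48 peaks, 16 had a centre within 1 kb of a transcript start of any gene and 32 did not. With these 32 peaks alone the density was 255 peaks per Mb, rank 15 in the same class, in which the median was 11.4 peaks per Mb. The peaks lay in every 3rd of the gene, with 18 in the first 3rd of its length, 20 in the middle and 10 in the last. The median distance between neighbouring peak centres was 1.48 kb, and 29 neighbouring pairs were at most 2 kb apart. The longest stretch without a peak centre was 12.1 kb, from 12.4 to 24.5 kb into the gene.

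Most of the peaks in Nrxn2 lay in introns. By the gene's own transcripts, 15 peaks lay within 1 kb of a start, 8 more touched an exon and 25 lay in introns only. Coding bases of the longest coding transcript, which has 22 exons and encodes 1710 residues, were under 10 peaks. The last coding exon, which holds the membrane-spanning and cytoplasmic end, had a peak at 113 kb that fell wholly on coding sequence (500 coding bp). That peak also lies within 1 kb of the start of the antisense gene Gm14964, so the exon and the antisense start cannot be told apart. Peaks farther inside took in 439 coding bp of exon 8, 386 of exon 9 and 204 of exon 10. The annotated end of Nrxn2 overlaps Slc22a12, a urate transporter gene on the opposite strand. With the shorter gene body of RefSeq, which ends before Slc22a12, the count was 46 peaks in 114 kb, or 402 peaks per Mb. The surroundings of Nrxn2 were also rich in peaks, mainly on the upstream side. The 100 kb on each side held 31 peaks in all, or 155 peaks per Mb of both sides pooled. In the 3.51 kb between Nrxn2 and its upstream neighbour Rasgrp2, 4 peaks were found, of which 1 is the peak over the outermost start and is counted in the gene as well. The 285 kb to the next gene downstream, Rps6ka4, held 8 peaks, or 28.1 per Mb, so most of the 31 lie upstream.

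Nrxn3 had fewer peaks over a far longer gene. The gene (ENSMUSG00000066392.11) lies on the plus strand at chr12:88722876-90334935, spans 1612 kb and held 37 peaks, or 23.0 peaks per Mb. Genes over 300 kb had a median of 12.9 peaks per Mb (quartiles 6.59 and 24.1), and Nrxn3 ranked 158 of 567. Among the 59 genes longer than 1 Mb, whose median was 10.5 peaks per Mb, it ranked 10. Of its 37 peaks, 35 lay farther than 1 kb from any transcript start, which is 21.7 peaks per Mb and rank 123 of the 567, against a class median of 9.03. By its own transcripts, 34 peaks were intronic, 2 lay at starts and 1 touched an exon of a short transcript model, and none took in coding sequence of the longest coding transcript, which has 20 exons. The first 3rd of the gene held 17 peaks and each of the other parts 10.

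Peaks in Nrxn3 were grouped. The median distance between neighbouring centres was 27.8 kb, but 5 neighbouring pairs were within 2 kb, and 5 peaks lay between 262 and 274 kb into the gene. A gap of 246 kb, from 843 to 1089 kb, ended at the peaks of the inner start. A second empty stretch of 193 kb followed the last peak, which lies 1419 kb into the gene. Outside the gene peaks were sparser than over it. The 100 kb on each side held 1 peak in all, or 5.00 per Mb. In the 261 kb between Adck1 and Nrxn3, 4 peaks were called (15.3 per Mb). Of these, 1 is the peak over the outermost start, which is counted in the gene as well. The 389.6 kb between the end of Nrxn3 and Dio2, which encodes a thyroid hormone-activating enzyme, held 1 (2.57 per Mb).

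Nlgn1 was close to the middle of long genes. It lies on the minus strand at chr3:25426215-26332460 (ENSMUSG00000063887.13), spans 906 kb and held 11 peaks, or 12.1 peaks per Mb, rank 303 of the 567 genes over 300 kb. Farther than 1 kb from any start lay 8 of the 11, or 8.83 peaks per Mb against a class median of 9.03. All 8 of these lay in introns, and none of the 11 peaks took in coding sequence. Peaks were gathered in the 5′ part, with 7, 3 and 1 in the successive 3rds of the gene. Between 158 and 181 kb lay 5 peaks, next to an inner coding start at 179 kb. Farther in, peaks stood alone at 306, 329, 507 and 761 kb, with a longest gap of 254 kb and a last stretch of 145 kb without a peak. One more peak, at chr3:26332642-26333141, lay just upstream of the gene body. Its centre is 431 bp before the outer start, so it is not among the 11. The region around Nlgn1 was poor in peaks, with 2 peaks in the 100 kb to both sides (10.0 per Mb). The 282 kb to Naaladl2 downstream held 1 peak, and the 305 kb to Spata16 upstream held 2.

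Nlgn2 is short and lay in a dense region. The gene (ENSMUSG00000051790.15) is on the minus strand at chr11:69823122-69837784, spans 14.7 kb and held 7 peaks, or 477 peaks per Mb. Short genes reach high densities with few peaks, and Nlgn2 ranked 1083 of 16755 genes under 50 kb, of which 56.4% had a peak at all. Of the 7 peaks, 5 lay within 1 kb of one of its starts, 1 in the last exon and 1 in an intron, and 3 took in coding bases. The peak at 12.2 kb fell wholly on coding sequence of exon 8, the last one. Nlgn2 stands head to head with Tmem256, a gene of a small membrane protein, across 729 bp that 2 peaks touch, 1 of them among the 7. Peaks over that gap are within 1 kb of starts of both genes and cannot be assigned to one of them. No peak lay in the 941 bp to Spem1 downstream. The 100 kb on each side held 23 peaks, or 115 per Mb.

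**Figure D2:**
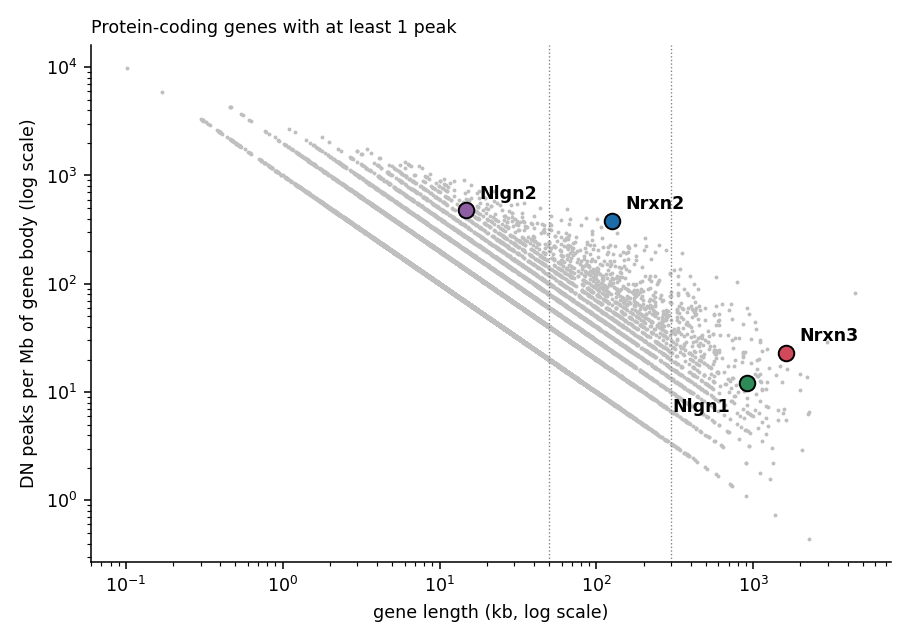
DN peaks per Mb of gene body against gene length in kb, both on log scales, for all protein-coding genes with at least 1 peak (grey) and the 4 genes (large points); dotted lines mark 50 and 300 kb and the diagonal bands are genes with 1, 2, 3 or more peaks. Nrxn2 sits at the upper edge for its length with 383 peaks per Mb, and Nlgn1 lies in the middle of the long genes with 12.1.

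Genes of similar length gave the same order. Of 918 other genes within 20% of the length of Nrxn2 that had a peak, 1 was denser. This was Mapt, the gene of the microtubule protein tau, with 40 peaks in 101 kb and 397 peaks per Mb, followed by Rab11fip4 (337) and 2900026A02Rik (296), the other genes nearest to Nrxn2 in density. Of 13 genes within 20% of the length of Nrxn3, 1 was denser, Pde4d, a cyclic AMP phosphodiesterase gene with 23.3 peaks per Mb. Magi2 and Csmd1 came next, with 17.6 and 16.4. For Nlgn1, 32 of 68 such genes were denser, and Immp2l, Hdac9 and Nav3 had 9 to 11 peaks each, against 11 in Nlgn1. For Nlgn2, 33 of 1523 were denser, and Pik3ip1, Zfp219 and Dbn1 had 6 or 7 peaks. No count behind these comparisons has a replicate, so neighbours in this order cannot be said to differ.

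The alternative starts were then compared with the peaks one by one. The 4 genes have 34 distinct annotated starts, of which 25 had a peak centre within 1 kb, against 51.2% of all 86315 distinct starts of protein-coding genes. Starts next to each other share peaks, so the 34 are not independent. Of starts of coding transcripts in the basic set, which leaves out partial models, 12 of 16 had a peak, against 55.6% over all genes. The share over all genes was 54.5% for the outermost such start of each gene and 32.1% for starts lying more than 5 kb further in.

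In Nrxn2, 14 of 15 starts and 7 of 7 coding starts had a peak within 1 kb. The outermost start (6418731) lay under a peak whose centre was 36 bp upstream, at chr19:6418446-6418945. A second group of coding starts at 9.19 to 9.21 kb, with proteins of up to 1710 residues, lay under a peak with a centre 18 and 4 bp away, and both lie in an internal exon of 9 other models. The inner start at 79.1 kb (6497828), whose protein has 660 residues against 1503 to 1710 for the outer starts, lay under the peak chr19:6497772-6498271 with a centre 193 bp downstream. This inner start was flanked by peaks on both sides, with 3 centres within 1 kb and 5 within 2 kb. In all, 53.4% of the bases of Nrxn2 lie within 1 kb of a peak centre, so that the count of starts with a peak has to be read against that share.

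In Nrxn3, 5 of 12 starts and 1 of 4 coding starts had a peak within 1 kb, whereas 4.21% of the bases of the gene lie that close to a peak centre. The coding start with a peak was the inner one at 1089.6 kb (89812483), which gives a protein of 567 residues. It lay under the peak chr12:89812078-89812577, with a centre 156 bp upstream and 2 more peaks within 2 kb. The outermost start had the peak chr12:88722647-88723146 with a centre 20 bp downstream. In GENCODE the transcripts that begin there are models with a retained intron or subject to nonsense-mediated decay. In RefSeq, 27 of 46 mRNA models begin within 1 kb of that start, all of them predicted. The outermost coding start of GENCODE, at 71.6 kb with 1571 residues, was 17.8 kb from the nearest peak centre. The other coding starts were 31.1 kb (at 231 kb) and 5.89 kb (at 470.2 kb) away. The outermost and the inner start thus each had a peak, and the coding starts that GENCODE places between them had none. Whether the outermost start serves the alpha protein was not tested.

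Starts without a peak often fell inside an exon of other transcript models. Of the 34 starts, 9 lay in an internal exon of another GENCODE or RefSeq model of the same gene, and 4 of these, all in Nrxn2, had a peak. Of the 25 that did not, 21 had a peak. The start of Nrxn3 at 71.6 kb coincides with the first base of an internal exon in 46 other models and follows the letters AG, which precede exons at splice acceptors. Its printed line above ends in these letters. The start at 470.2 kb lies inside an internal exon of 50 other models. The inner start of Nlgn1 without a peak, at 199 kb, lies inside an exon of 19 others. Whether transcription begins at these positions was not tested.

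**Figure D3:**
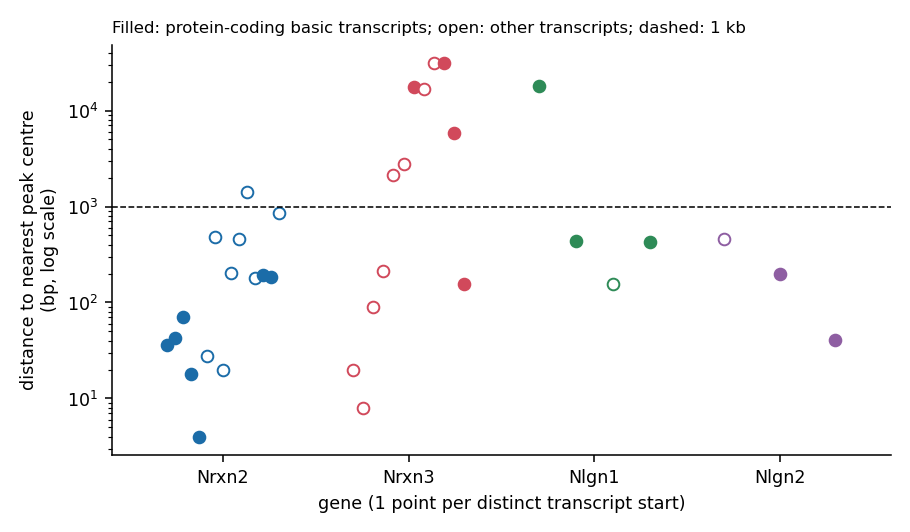
Distance in bp from each distinct transcript start to the nearest DN peak centre, on a log scale, for the 4 genes; filled points are coding transcripts of the basic set, open points are other transcripts, and the dashed line is at 1 kb. In Nrxn2, 14 of 15 starts lie under the line, and in Nrxn3 the coding starts at 5.89, 17.8 and 31.1 kb stand above it.

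The starts of the neuroligin genes were examined in the same way. In Nlgn1, 3 of 4 starts had a peak centre within 1 kb, and 2.21% of the bases of the gene lie that close to one. The outer coding start (26332460) had peak centres 431 bp upstream and 746 bp downstream, but no peak over the start base itself. The second coding start at 179 kb, with a protein of 814 residues against 843, had one centre 442 bp downstream and another upstream within the 1 kb. The third, at 199 kb, was 18.0 kb from the nearest centre. In RefSeq, 14 of 17 mRNA models of Nlgn1 begin within 1 kb of a peak centre. The 17 models have 9 distinct starts, and 7 of the models begin within 1 kb of the outer start. Models that share a start share its peak, and the share over all RefSeq models was not computed. In Nlgn2, all 3 starts had a peak, and the outer start (69837784) lay under one with a centre 41 bp upstream. The coding starts of Nlgn2 at 0 and 2.94 kb give the same length of protein, 836 residues. The starts of Nlgn2 are close together and 59.4% of its bases lie within 1 kb of a peak centre, against which the 3 of 3 has to be read.

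The stretches on either side of the inner neurexin start were also compared. In Nrxn2, 33 peaks lay more than 1 kb before the inner start and 12 more than 1 kb after it, or 423 and 265 peaks per Mb. In Nrxn3, 28 lay before and 8 after, or 25.7 and 15.3 per Mb. The part before the inner start holds 63.1% of the length of Nrxn2 and 67.6% of that of Nrxn3, and it includes most of the other starts. Leaving out peaks within 1 kb of any start of the gene, a choice made after seeing the data, left 22 and 11 peaks in Nrxn2 (282 and 243 per Mb) and 27 and 8 in Nrxn3 (24.8 and 15.3 per Mb). The 2 densities of Nrxn2 lay closer together then, and the counts come without replicates.

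**Figure D4:**
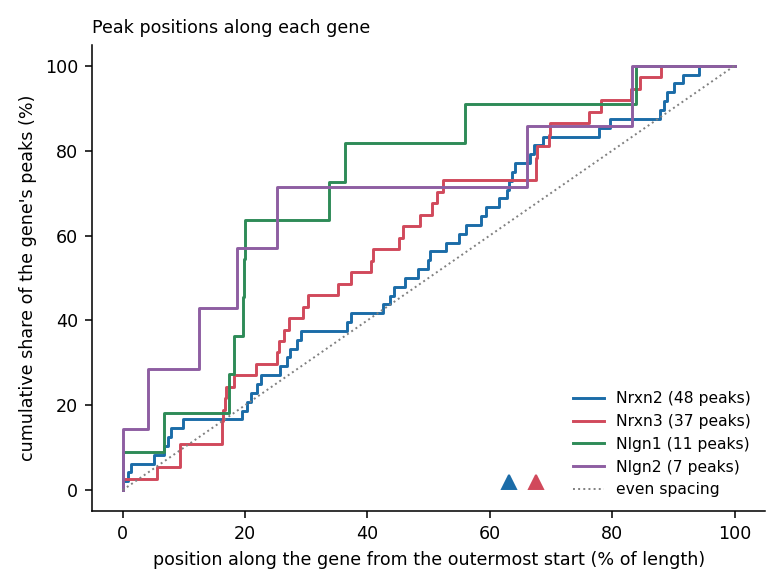
Cumulative share of the peaks of each gene (%) along its length from the outermost start (% of gene length); triangles mark the inner start of Nrxn2 (63.1%) and Nrxn3 (67.6%), and the dotted line is even spacing. Nrxn2 follows even spacing most closely, and Nlgn1 and Nlgn2 gather their peaks near the 5′ end.

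The sequence of the peaks followed the gene in which they lay. The gene bodies have a GC content of 53.7% in Nrxn2, 39.3% in Nrxn3, 37.3% in Nlgn1 and 55.4% in Nlgn2. Among peaks farther than 1 kb from any start, the median GC content was 55.3% in Nrxn2 (32 peaks), 44.4% in Nrxn3 (35) and 42.2% in Nlgn1 (8), against 49.0% over the 34144 such peaks of the whole list (quartiles 44.8% and 53.2%). All 8 of Nlgn1 were below the median of the list, with a highest value of 45.8%. Peaks rich in CpG, here with GC content over 50% and an observed to expected CpG ratio over 0.6, made up 24.7% of all peaks and 9 of the 103 member peaks, and all 9 lay within 1 kb of a start. By position, they were 34.6% of the 26 member peaks within 1 kb of a start, against 58.7% of all such peaks, and 0% of the 77 farther away, against 3.54%. These were 6 in Nrxn2, 2 in Nlgn2 and 1 in Nlgn1. Nrxn3 had none, although its outermost and its inner start each had a peak. The peak at its inner start had a ratio of 0.56 and that at its outer start 0.31. Few peaks were repetitive: bases that the assembly masks as repeats made up over 50% of 1 peak of the 103 (0.971%) and of 1.44% of all peaks.

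**Figure D5:**
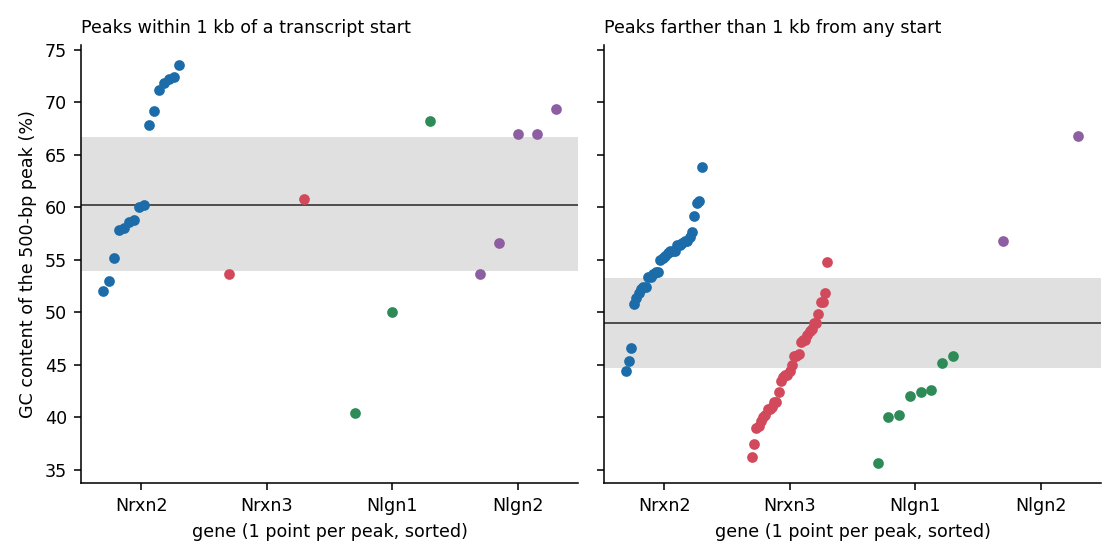
GC content of each peak (%) in the 4 genes, for peaks within 1 kb of a transcript start of any gene (left) and farther away (right); points are single peaks sorted within the gene, and the line and grey band are the median and quartiles of all DN peaks of the same kind. Away from starts, Nrxn2 peaks have a median of 55.3% and Nlgn1 peaks one of 42.2%, on either side of the 49.0% of the whole list.

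Short words bound by families of transcription factors were counted in the peaks. Whether each of these factors is present in DNs was not examined. The 12 words were searched on both strands, and none holds another whole: TGTTTAC (forkhead factors such as Foxa1 and Foxa2), CAGATGG (the Neurod E-box), TAATTA (Lmx1b and other homeobox factors), TAATCC (Pitx and Otx factors), AAAGGTCA (Nr4a receptors), TGANTCA (AP-1), TGACGTCA (the cyclic AMP response element), GCGTGGGCG (Egr1), GGGCGG (Sp and KLF factors), CCANNAG followed by NNGGC (CTCF), GTTGCC followed by ATGG (Rfx factors) and CTATT followed by TATAG (Mef2 factors). A match is a run of letters and not a binding site. Intervals are exact Clopper-Pearson 95% intervals and cover counting error only.

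Most words were about as frequent in the 103 peaks as in the whole list. TAATTA was in 10 peaks, or 9.71% (interval 4.75 to 17.1%), against 7.27% of all peaks, and TAATCC in 14 peaks, or 13.6% (7.63 to 21.8%), against 13.6%. CAGATGG was in 12.6% (6.89 to 20.6%) against 11.5%, TGTTTAC in 6.80% (2.78 to 13.5%) against 7.22%, TGANTCA in 9.71% (4.75 to 17.1%) against 12.3%, AAAGGTCA in 1.94% (0.236 to 6.84%) against 4.00%, and the Rfx word in 0.971% (0.0246 to 5.29%) against 1.72%. The cyclic AMP response element, Egr1 and Mef2 words were in none of the 103, which allows a share of up to 3.52%, against 1.51%, 0.663% and 0.192% of all peaks. The GC-rich word GGGCGG was in 18 of 48 peaks of Nrxn2 (37.5%, interval 24.0 to 52.6%) and 4 of 7 of Nlgn2, but in 1 of 37 of Nrxn3 (2.70%, 0.0684 to 14.2%), against 32.3% of all peaks. However, 35 of the 37 peaks of Nrxn3 lie away from starts, and in such peaks of the whole list the word was in 14.0%, a share that the interval of Nrxn3 includes.

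The word for CTCF, the factor that anchors chromatin loops, was in 9 of the 103 peaks, or 8.74% (4.07 to 15.9%), against 10.1% of all peaks. Among the 77 peaks away from starts it was in 8, or 10.4% (4.59 to 19.4%), against 12.5% of such peaks, and both intervals include the share of the list. The word was in the central 200 bp of 7 of the 103 peaks (6.80%, against 8.24% of all). The list of words first had a CTCF word with 1 free base between AG and GGC, which is a base short of the core of the motif. It was replaced after the data had been seen, and the short word, in 7 of the 103 peaks (6.80% against 2.98%), is not read as CTCF. Of the CTCF words, 6 in the neurexin genes are printed with the distance of the peak from the outer start, since the motif has a direction. Each line has 30 bases on the strand that carries the word, 5′ to 3′, with the word in capitals.
Nrxn2, 70.5 kb (chr19:6489158-6489187, plus strand): ccaccagtggCCACAAGGGGGCaggcgaag
Nrxn2, 73.5 kb (chr19:6492241-6492270, plus strand): caccttgctcCCAGGAGAGGGCgatgtgtt
Nrxn2, 83.4 kb (chr19:6502063-6502092, minus strand): tctagccctcCCAGAAGAAGGCatgccagc
Nrxn3, 269 kb (chr12:88992302-88992331, plus strand): tgtaatcctaCCAGAAGGTGGCacactaca
Nrxn3, 412 kb (chr12:89134565-89134594, minus strand): ttcattccaaCCACTAGAGGGCaacagagt
Nrxn3, 782 kb (chr12:89505300-89505329, plus strand): tgaatagaggCCACTAGGTGGCactctcac
Both neurexin genes held the word in both directions. In Nrxn2 those at 70.5 and 73.5 kb run with the gene and that at 83.4 kb against it, and they lie 45, 3 and 72 bp from the peak centre. In Nrxn3 those at 269 and 782 kb run with the gene and that at 412 kb against it. The words at 269 and 412 kb lie 7 and 3 bp from the centre of their peaks and that at 782 kb 46 bp. None of these 6 words falls in an exon. In Nlgn2 the word was in the peaks at 9.68 and 12.2 kb, and Nlgn1 had none in its 11 peaks, which allows a share of up to 28.5%.

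Intronic peaks of the long genes are shown last, as the peaks that make up most of Nrxn3 and Nlgn1. By rule these are the 2 exon-free peaks of each gene, farther than 1 kb from a start, that hold the most of the words other than that of CTCF. Each line has the 240 bases of the peak that hold the most words, in the direction of transcription, with every word found in capitals.
Nrxn3 intron, 738 kb (chr12:89461162-89461401, plus strand): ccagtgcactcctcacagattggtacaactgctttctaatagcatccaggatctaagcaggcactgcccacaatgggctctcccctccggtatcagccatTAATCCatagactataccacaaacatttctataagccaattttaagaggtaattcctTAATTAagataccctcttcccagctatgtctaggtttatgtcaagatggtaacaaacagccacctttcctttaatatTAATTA
Nrxn3 intron, 1229 kb (chr12:89951448-89951687, plus strand): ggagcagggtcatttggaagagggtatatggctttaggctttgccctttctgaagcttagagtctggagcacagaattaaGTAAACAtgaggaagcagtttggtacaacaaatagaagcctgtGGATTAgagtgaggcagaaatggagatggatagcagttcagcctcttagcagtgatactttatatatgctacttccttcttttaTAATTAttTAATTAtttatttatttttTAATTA
Nlgn1 intron, 329 kb (chr3:26003381-26003620, minus strand): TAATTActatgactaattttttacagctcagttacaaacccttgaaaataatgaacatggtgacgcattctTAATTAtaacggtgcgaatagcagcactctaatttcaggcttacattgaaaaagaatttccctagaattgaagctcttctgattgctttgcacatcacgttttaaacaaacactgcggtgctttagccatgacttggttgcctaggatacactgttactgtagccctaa
Nlgn1 intron, 61.4 kb (chr3:26270958-26271197, minus strand): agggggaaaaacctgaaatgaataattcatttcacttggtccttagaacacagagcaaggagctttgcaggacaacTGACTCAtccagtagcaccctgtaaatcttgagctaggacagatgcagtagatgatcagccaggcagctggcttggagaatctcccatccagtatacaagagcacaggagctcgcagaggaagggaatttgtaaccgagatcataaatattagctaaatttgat
The peak 1229 kb into Nrxn3 held the forkhead, Pitx and homeobox words, the first pair of them on the opposite strand. Foxa2, Pitx3 and Lmx1b, which specify dopaminergic neurons, belong to these families. It had a GC content of 39.2%. The peak at 738 kb held TAATTA and TAATCC within the line and AAAGGTCA elsewhere in the peak. In Nlgn1, the peak at 329 kb held TAATTA within the line and the AP-1 word elsewhere in the peak. The peak at 61.4 kb held the AP-1 word within the line and TAATCC elsewhere. With the CTCF word counted as well, 5 of the 37 peaks of Nrxn3 held 3 of the 12 words, of which 3 hold the CTCF word and 2 are those shown here. The rule chose the latter for it.

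Genes that act with neurexins and neuroligins were counted in the same way. Secreted and membrane ligands of neurexins had a peak over the gene body in 14 of 17, against 63.8% of all genes. Those without were Cbln3, Nxph2 and C1ql2. A peak centre lay within 1 kb of a coding start in 15 of the 17, so not all of these genes lacked a peak just outside the body. The median percentile of the list within the length classes was 83.1, with 13 of 17 above the median of their class. The densest of more than 50 kb were Dag1, which encodes dystroglycan, with 67.4 peaks per Mb, the adhesion gene Lrrtm3 with 37.1 and the neurexophilin gene Nxph1 with 20.0. Presynaptic partners of the neurexin tail had a peak in 9 of 9 (median percentile 69.3). Most of these 9 are longer than 50 kb. Of all genes of 50 to 300 kb, 87.3% had a peak, and of those over 300 kb 96.3%. Among the 9 partners were Epb41l1, a protein 4.1 gene, with 28 peaks and 229 per Mb, and the Mint adaptor genes Apba1 (105) and Apba2 (39.7). The kinase-like scaffold Cask, which binds the neurexin tail directly, had 3 peaks over 334 kb, or 8.97 per Mb.

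On the postsynaptic side, scaffolds and lateral partners of neuroligins had a peak in 15 of 15, with a median percentile of 63.7. Long genes mostly have a peak, with 87.3% of those of 50 to 300 kb and 96.3% of those over 300 kb, and 14 of these 15 are longer than 50 kb. The Shank scaffold genes were the densest of more than 50 kb, with 358 peaks per Mb for Shank1, 165 for Shank3 and 68.6 for Shank2. Gphn, the gene of the inhibitory scaffold gephyrin that binds Nlgn2, had 2 peaks over 458 kb (4.36 per Mb), and Dlg4, the gene of the excitatory scaffold PSD-95, had 11 over 30.6 kb (359.7 per Mb). Cask, Gphn and Dlg4 were named for their roles after the values were seen. Of 28 other synaptic adhesion genes, 27 had a peak (median percentile 76.1), against 56.4% to 96.3% over the length classes, and Lrfn3 had none. The receptor phosphatase genes Ptprs and Ptprf reached 265 and 180.3 peaks per Mb, and Flrt2 64.5. Their relative Ptprd had 15 peaks over 2271 kb, or 6.61 per Mb (percentile 25.0 of genes over 300 kb), and is given beside them although it was picked after its value was seen. The 4 lists were chosen by name from known partners of these proteins, and expressed neuronal genes of any kind were not set beside them, so the counts say nothing particular about synaptic adhesion.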

How the data were processed

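The labels give 2 VTA snATAC-seq libraries of DNs (replicates 1 and 2) and 1 bulk mES cell library, for which no file was analysed. Per the study's methods, the authors mapped the snATAC-seq reads to mm10 with Cell Ranger ATAC. With ArchR they removed doublets and nuclei with low TSS enrichment or few fragments, then made peaks from 2 pseudobulk replicates, keeping those found again and merging overlaps step by step. They also describe a filter on the share of nuclei with a peak, without saying whether the list had passed it. The deposited list holds chromosome, start and end positions only and no other unit, so neither counts nor depth were known for single peaks. The study does give the number of DN nuclei from each library and the total of ATAC fragments for DNs. Starts were read as counted from 0 and are printed counted from 1.

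Peaks were assigned to GENCODE M21 gene bodies by an overlap of at least 1 bp, and to distinct transcript starts, leaving out models with an incomplete 5′ end, by a centre within 1 kb. Densities are peaks per Mb of gene body, ranked among protein-coding genes over 300 kb, of 50 to 300 kb or under 50 kb. Sequence and RefSeq models came from GRCm38.p6, whose chromosomes fit all peak positions. RefSeq promoter tables were not needed. The members, gene lists and words were chosen with earlier results of these data known. Genes were named as follows: the 4 members; in each list the 3 densest genes over 50 kb and, if at most 5, those without a peak; the nearest gene on each side; and the 3 genes within 20% of a member's length and nearest in density. Counting was tested on simulated positions and planted words. Alternatives were other overlaps, gene bodies, windows and length limits. The sequence at 1 CTCF word is not reported here. No p-value was computed, and the study's length-scaled RNA and ATAC values were not used. Python 3.11.15, NumPy 2.4.6, SciPy 1.17.1 and Matplotlib 3.10.9 were used.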

Additional observations from a re-analysis of the deposited data

How the results depend on the processing

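The 4 peak counts were within 1.5 times the reported value under all 7 alternatives, 1 of which, the RefSeq gene body, was chosen after seeing the data. So were the 4 partner lists under theirs, the 4 counts on either side of the inner neurexin starts without peaks near starts (also chosen after seeing the data), and 9 of 12 counts of starts. The exceptions were Nrxn2, with 7 starts instead of 14 when only its 7 coding starts were counted, Nrxn3, with 1 instead of 5 when only its 4 coding starts were, and Nlgn1, with 1 instead of 3 when the peak had to cover the start. The percentile of Nrxn3 among long genes, 72.1 at over 300 kb, was 65.3 at over 200 kb and 77.0 at over 500 kb, and that of Nlgn1, 46.6, became 40.7 and 53.9, because shorter genes are denser. In the central 200 bp, where fewer bases were searched, the Neurod E-box share was 4.85%, against 5.32% of all peaks. TAATTA was in 2.91% there (1.87% of all), TAATCC in 5.83% (5.47%) and the Rfx word in 0% (1.43%). The GGGCGG share, 24.3% of the 103 peaks against 32.3% of all, was 15.6% away from starts, against 14.0% of all such peaks. The CTCF word with 2 free bases gave 8.74% against 6.80% for the short one, a choice made after seeing the data. With it, the other 20 of 25 word shares stayed within their intervals. No paired analysis was possible because both libraries are pooled in 1 list, and for the same reason no replicate could be left out. A stricter peak threshold could not be applied without scores.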
